A study of Homo sapiens with 6 samples.

Results

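The genes described here govern passage through G1 into S phase: the D-type cyclins CCND1, CCND2 and CCND3, the kinases CDK4 and CDK6, the inhibitor gene CDKN2A, the retinoblastoma gene RB1, the E-type cyclins CCNE1 and CCNE2, and SKP2. They were chosen by symbol, and 28 probe sets of the U133 Plus 2.0 annotation map to these 10 genes, out of 41091 probe sets with a single symbol for 19775 genes. The cells were 2 established human osteosarcoma lines, U-2OS and KHOS, which carries the Kirsten sarcoma virus transformation. Each line gave 1 control array, 1 array of cells given the empty microRNA vector pEP-miR-Null and 1 array of cells given pEP-miR-1, which expresses miR-1. The vectors were delivered with Lipofectamine LTX and Plus Reagent for 48 hours, and the labels name no vector for the controls. The transfection protocol is attached to every sample, controls included, so whether the control cells received the reagent is not settled and the comparison of vectors with control may include it. RNA from 3 flasks was pooled for an array, so a condition within a line has no replicate. The p-values thus do not measure variation between repeats of a condition. In the fits over both lines their spread takes in how far the lines disagree over the treatments.

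In G1, D-type cyclins bind CDK4 or CDK6 and phosphorylate the retinoblastoma protein, which holds E2F transcription factors in check. E-type cyclins with CDK2 carry the phosphorylation further, and the p16 product of CDKN2A inhibits CDK4 and CDK6. SKP2 is the F-box subunit of a ubiquitin ligase that marks the CDK inhibitor p27 for destruction. Osteosarcomas often lose RB1 or CDKN2A or gain CDK4. The microRNA carried by the vector, miR-1, is best known from muscle.

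The sequences that bear on the comparisons are the microRNA itself and the promoters of SKP2, which had the most negative vector value of these genes in the fit over both lines, and of CCNE1, whose vector values had opposite signs in the lines. The promoter of MCM6, a replication helicase gene and a classical E2F target, stands beside them. The microRNA is given 5′ to 3′ with its seed, bases 2 to 8, in capitals, and each promoter runs from 250 bases before the annotated start to 50 after it, with E2F-type motifs in capitals.
hsa-miR-1-3p, chr20:62554351-62554372, + strand: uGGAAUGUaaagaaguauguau
SKP2 promoter, chr5:36151861-36152160, + strand: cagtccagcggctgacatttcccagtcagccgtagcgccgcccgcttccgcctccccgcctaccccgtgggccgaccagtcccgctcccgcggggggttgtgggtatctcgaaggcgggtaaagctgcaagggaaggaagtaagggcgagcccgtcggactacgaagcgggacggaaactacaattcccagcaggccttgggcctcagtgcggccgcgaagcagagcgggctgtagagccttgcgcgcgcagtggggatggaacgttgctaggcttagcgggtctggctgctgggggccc
CCNE1 promoter, chr19:29811741-29812040, + strand: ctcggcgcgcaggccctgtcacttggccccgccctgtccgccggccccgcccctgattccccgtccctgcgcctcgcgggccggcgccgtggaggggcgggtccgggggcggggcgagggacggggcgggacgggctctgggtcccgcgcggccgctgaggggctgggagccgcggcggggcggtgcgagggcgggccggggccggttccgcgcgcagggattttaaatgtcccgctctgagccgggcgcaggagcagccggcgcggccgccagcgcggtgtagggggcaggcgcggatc
MCM6 promoter, chr2:135876394-135876693, - strand: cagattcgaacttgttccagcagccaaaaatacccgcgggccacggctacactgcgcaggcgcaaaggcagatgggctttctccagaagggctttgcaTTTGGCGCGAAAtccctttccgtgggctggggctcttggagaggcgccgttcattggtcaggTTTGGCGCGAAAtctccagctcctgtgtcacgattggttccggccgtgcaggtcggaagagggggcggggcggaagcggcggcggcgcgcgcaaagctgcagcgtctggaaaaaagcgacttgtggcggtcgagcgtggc
All are RefSeq sequences on GRCh38.p14. The motifs searched were TTTCCCGC, TTTGGCGC, TTTCGCGC and TTTGCCGC on both strands, and overlapping matches were counted separately. MCM6 held 4 matches in 2 overlapping pairs. The table had 11 promoters for 7 of the G1 genes, and 0 of these 11 held a motif. Only exact matches to these 8-base motifs were counted, so a promoter without one may hold E2F sites of other forms. For RB1 and CCND3 the entries are internal starts, so the promoters at the first base of these genes were not searched, and CCND1, CCND2 and CCNE2 had no entry. Among all 35116 promoters 3.31% held a motif, and 13 of 35 promoters of the E2F target list used further on did, or 37.1%.

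Values are log2 expression after RMA, so a difference of 1 is a doubling of signal, and levels were compared only within a probe set. A gene was tested where the mean of its brightest probe set reached the median of all probe sets, 5.11, which 12958 genes did. All 10 G1 genes were tested, and 21 of their 28 probe sets reached that level. CCND2 and CDKN2A did so through U-2OS alone, so a line difference was built into their selection. A test passed where limma gave a Benjamini-Hochberg adjusted p under 0.05.

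The arrays differed in ways that run along with the groups. The interquartile range of all values was 3.24 to 3.35 on the KHOS arrays, whereas for U-2OS it was 3.07, 2.84 and 2.75 on control, miR-null and miR-1. Hybridization spike-ins were higher on the vector arrays than on their control by 0.27 in KHOS, against 0.68 for U-2OS, and 28S ribosomal probe sets by 0.47 and 0.88. The actin 3′ minus 5′ signal, a sign of RNA quality, was also higher on all 4 vector arrays, at 2.68, 2.89 and 2.90 in KHOS, against 2.40, 2.64 and 2.49 in U-2OS, in the order control, miR-null and miR-1. The GAPDH 3′ minus 5′ signal moved less, at 0.55, 0.59 and 0.53 in KHOS, against 0.42, 0.48 and 0.46 in U-2OS. On the KHOS miR-1 array it lay below control. Of 6 osteosarcoma line markers RUNX2, COL1A1, SPARC and VIM reached the level filter, while COL1A2 (4.33 to 4.67) and ALPL (3.76 to 4.49) did not. EPCAM, CD3E, HBB and PECAM1 were the markers of other cell types that reached it, while CDH1, KRT19, PTPRC, CD14, CDH5 and KDR lay between 3.53 and 4.66 on every array. KRT5 (up to 5.25) and VWF (up to 5.24) were below it on average but above it on some arrays, and KRT5 was higher on the U-2OS vector arrays than on their control by 0.70. The part of the array differences in the results was not tested. Values after quantile normalization, which gives the arrays 1 distribution, are set beside the vector results for most of the G1 genes. None are given for the genes of the pathway lists or the cell type markers, so their vector values were not checked in this way.

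Among these genes the lines differed in their cyclins and in RB1. CCND2 and CCNE1 were higher in U-2OS, and CCND1, CCNE2 and RB1 were higher in KHOS. In limma, with treatment as a further term, 7 of the 10 genes passed between the lines, where 54.8% of all genes tested did. Of these 3 were higher in KHOS (background 30.3%) and 4 lower (24.5%), and 8 of 10 had an unadjusted p under 0.05, against 61.8%. The KHOS arrays lay wholly above those of U-2OS for 4 of 10 genes, against 32.7% of all genes, and wholly below for 3, against 32.2%. Leaving out CCND2 and CDKN2A, whose selection favoured a line difference, 5 of 8 genes passed. The share of all genes under that restriction was not worked out, so this count has no like background. With most genes of the array passing, these counts say little about the set.

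CCND2, which encodes cyclin D2, had log2 values of 4.38, 4.59 and 4.65 in KHOS, listed as control, miR-null and miR-1 here and below, against 12.87, 12.18 and 11.97 in U-2OS. All of its KHOS values lay below the level filter. The fitted difference, KHOS minus U-2OS, was -7.80 ± 0.24 (log2, SE). It is a description, with no fold or p given, since the KHOS side is background-level signal and the gene was tested through U-2OS alone. The 3 other CCND2 probe sets differed by -5.85, -2.31 and -1.12, all with the same sign. CCND1, encoding cyclin D1, ran the other way, with 10.92, 10.80 and 10.75 in KHOS, against 9.69, 9.04 and 8.86 in U-2OS. Its groups did not overlap, and the difference was 1.63 ± 0.18 (SE; adjusted p = 0.000617), or 3.08-fold, with 1.56 from its other probe set. CCND3, encoding cyclin D3, had 8.89, 8.92 and 8.81 in KHOS, against 8.63, 8.51 and 8.78 in U-2OS. Its fitted difference of 0.23 (95% interval -0.12 to 0.59) did not pass, its dimmer probe set had -0.57, and quantile normalization turned the sign (-0.109).

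The E-type cyclins were split in a similar way. CCNE2 had 10.15, 9.61 and 9.42 in KHOS, against 6.82, 5.78 and 5.54 in U-2OS, a difference of 3.68 ± 0.17 (SE; adjusted p = 2.05e-05), or 12.8-fold. Its dimmer probe set, below the level filter in U-2OS, differed by 2.42, or 5.36-fold. CCNE1 had 8.84, 8.42 and 8.59 in KHOS, against 9.59, 10.27 and 10.42 in U-2OS, a difference of -1.47 ± 0.24 (SE; adjusted p = 0.00327). For both cyclins the arrays of one line lay wholly above those of the other. Between the controls alone the CCNE1 difference was -0.75, and between the miR-null arrays it was -1.85.

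RB1 transcript was measured in both lines and was higher in KHOS. It had 10.25, 9.90 and 9.87 in KHOS, against 8.81, 8.13 and 7.79 in U-2OS, a difference of 1.76 ± 0.17 (SE; adjusted p = 0.000389), or 3.39-fold. Its other probe set stayed between 4.17 and 4.44, below the level filter. CDKN2A was dim throughout, with 4.84, 4.75 and 4.80 in KHOS, against 5.19, 5.63 and 5.74 in U-2OS on its brightest probe set. The difference of -0.72 ± 0.17 (SE) is likewise a description, as every KHOS value lay below the level filter.

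CDK4, the cyclin D partner that some sarcomas amplify, had 11.14, 10.94 and 10.78 in KHOS, against 11.59, 11.14 and 11.13 in U-2OS. The lines overlapped, and the difference of -0.33 (95% interval -0.67 to 0.01) did not pass, although it was -0.507 with an adjusted p of 0.0179 after quantile normalization. CDK6, the other partner, had 10.33, 10.20 and 10.25 in KHOS, against 10.46, 9.16 and 9.03 in U-2OS. The controls differed by -0.13 and the vector arrays by 1.05 and 1.21. With 1 control array a line, the spread of the control difference is not measured. SKP2 had 10.83, 9.78 and 9.72 in KHOS, against 11.33, 10.22 and 10.13 in U-2OS. It was lower in KHOS under each condition, by -0.45 ± 0.14 in the fit (SE; adjusted p = 0.031), although the lines overlapped. That call was lost after centring arrays on their medians (adjusted p = 0.0947) and without any 1 of the 4 vector arrays (0.104 to 0.214).

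**Figure D1:**
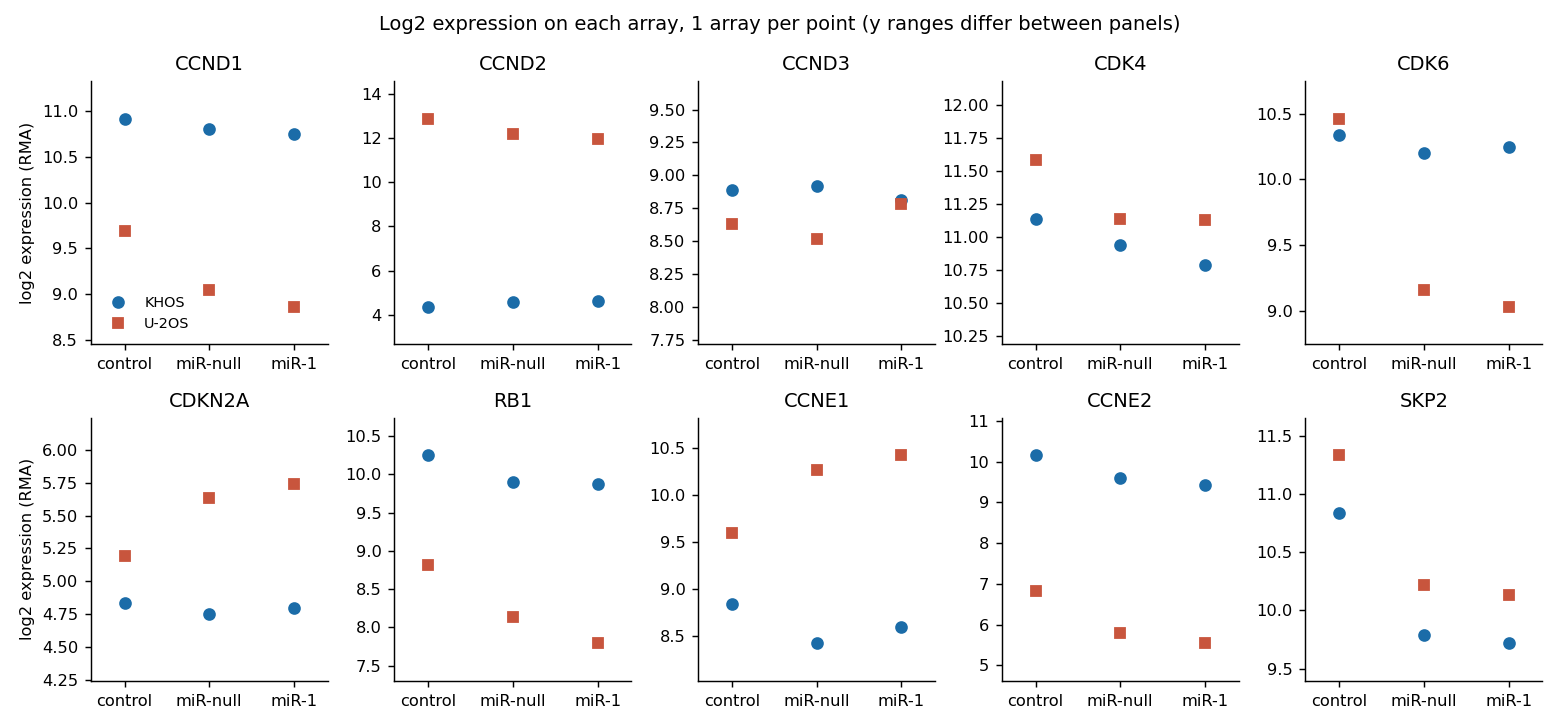
Log2 expression (RMA, y axis) of the probe set that represents each gene, by condition (x axis), with 1 array per point and the lines in different symbols. CCND2 sits at 4.38 to 4.65 in KHOS but 11.97 to 12.87 in U-2OS, and SKP2 is lower on both vector arrays than on the control of either line.

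**Figure D2:**
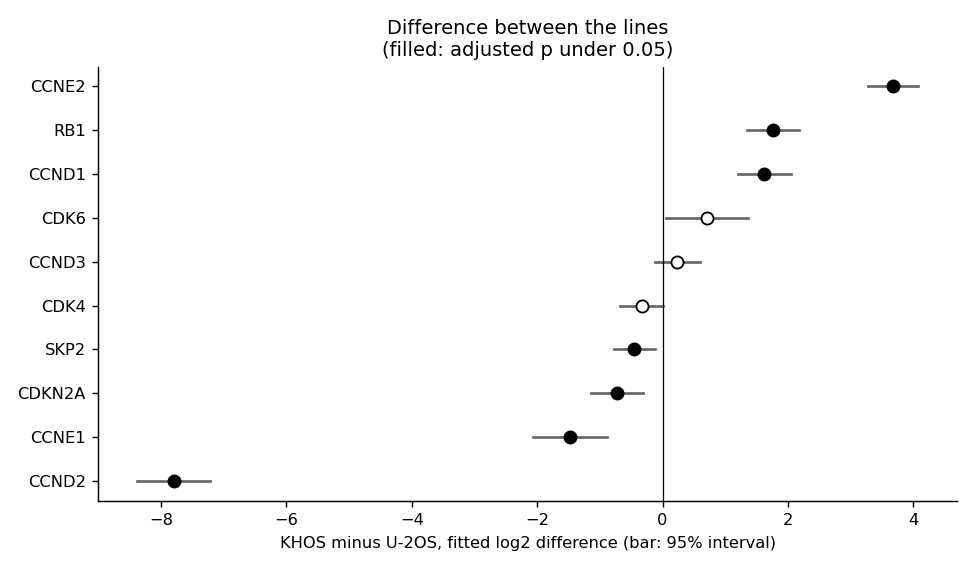
Fitted log2 difference KHOS minus U-2OS (x axis) for each gene (y axis), with the 95% interval as a bar and the passing genes marked. CCNE2, RB1 and CCND1 pass to the right of 0, and CCND2, CCNE1, CDKN2A and SKP2 to the left, of which CCND2 and CDKN2A were below the level filter in KHOS.

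Among the other genes of the pathway the counts are to be read against the 54.8% of all genes that passed between the lines, 30.3% higher and 24.5% lower in KHOS, and shares near these are not results about a list. Of 12 other RB family and E2F genes 5 were higher in KHOS and 2 in U-2OS, led by E2F5, a repressive E2F (3.73), RBL1, which encodes the pocket protein p107 (2.70), E2F8, an atypical repressor (1.52), and the activator E2F3 (1.01). All 3 CDK inhibitors tested passed: CDKN1B, which encodes the SKP2 substrate p27, was higher in KHOS (1.33), while CDKN1A, encoding p21 (-0.73), and CDKN1C, encoding p57 (-1.16), were higher in U-2OS. Of 5 CDK activation genes CCNH (1.92) and CDK7 (0.68), parts of the CDK-activating kinase, were higher in KHOS and CDK2, the partner of the E-type cyclins, in U-2OS (-0.54). Of 10 ubiquitin ligase partners CUL1, the scaffold of the SKP2 ligase, was higher in KHOS (0.57), and CKS1B, the SKP2 cofactor (-0.85), and FZR1, an activator of the ligase that destroys SKP2 (-0.48), in U-2OS. Of 24 E2F targets 8 were higher in KHOS and 5 in U-2OS, with the replication genes MCM4 (1.61), ORC1 (1.46), POLA1 (1.34) and CDC45 (-1.12) differing most.

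The vector arrays were then compared with the controls, which asks what transfection of either plasmid went with. SKP2 had the most negative value in the fit over both lines and lay below its line's control on all 4 vector arrays, although in U-2OS alone CDK6 was lower (-1.37 against -1.16) and CCNE2 about level with it (-1.16). CCNE2 and RB1 were lower on all 4 as well. In limma, with miR-null and miR-1 as separate terms, 0 of the 10 genes passed, where 3 of 12958 did (0.0232%). At an unadjusted p under 0.05 there were 5 of 10, CCNE2, CDK4, CDK6, RB1 and SKP2, against 15.5% of all genes. The median fitted change was -0.40 over the 10 genes, against -0.03 over all genes. With both vectors as 1 group, a fit added after the data were seen, SKP2 was the 1 of 10 that passed, on the lower side, where 0.478% of all genes did (0.355% higher and 0.123% lower). In such bulk RNA, fewer cells in a given phase and less transcript per cell cannot be told apart.

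SKP2 differed from control by -1.05 and -1.12 with miR-null and miR-1 in KHOS, against -1.11 and -1.20 in U-2OS. All 4 vector arrays lay below both controls, and the control signal was 2.12-fold that of the vector arrays in KHOS, against 2.23-fold for U-2OS. The fitted value was -1.12 ± 0.14 (SE, 95% interval -1.47 to -0.77; adjusted p = 0.0821 in limma), and its adjusted p was 0.0179 with both vectors as 1 group. Over the alternatives its adjusted p ran from 0.00192 to 0.127 in limma, lowest without the KHOS control array, when 7 of the 10 genes passed (CCND1, CCND2, CCNE1, CCNE2, CDK6, RB1 and SKP2) among 2278 of all genes, and 0.0047 without the U-2OS control. Without a line's control that fit rests on the other line's control array alone. That probe set ends in x_at and can read related transcripts. The next brightest SKP2 probe set had 7.12, 5.66 and 5.67 in KHOS, against 8.05, 6.26 and 5.99 in U-2OS, with mean vector differences of -1.45 and -1.93. The dimmest, below the level filter on average, had -0.41 and -0.56. After quantile normalization SKP2 had -1.13 in KHOS, against -0.96 for U-2OS. The difference between the lines in this change was 0.08, with a 95% interval of -0.46 to 0.61.

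CCNE2, a cyclin that E2F induces, differed from control by -0.54 and -0.73 in KHOS, against -1.04 and -1.28 in U-2OS, with a fitted value of -0.90 ± 0.18 (SE; adjusted p = 0.151). RB1 had -0.35 and -0.37 in KHOS, against -0.68 and -1.02 in U-2OS, and a fitted value of -0.61 ± 0.18 (SE; adjusted p = 0.218). SKP2, CCNE2 and RB1 were the 3 of 10 genes lower by at least 1.2-fold on all 4 vector arrays, against 6.2% of all genes, and 0 of 10 were higher on all 4, against 3.21%. The dimmer CCNE2 probe set had -0.71 in KHOS, against -0.24 for U-2OS, where it lay below the level filter. CDK4 had -0.20 and -0.35 in KHOS, against -0.45 and -0.46 in U-2OS, for a fitted -0.36 (adjusted p = 0.319). CCND1 had -0.11 and -0.16 in KHOS, against -0.65 and -0.83 in U-2OS, for a fitted -0.44 (adjusted p = 0.331).

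**Figure D3:**
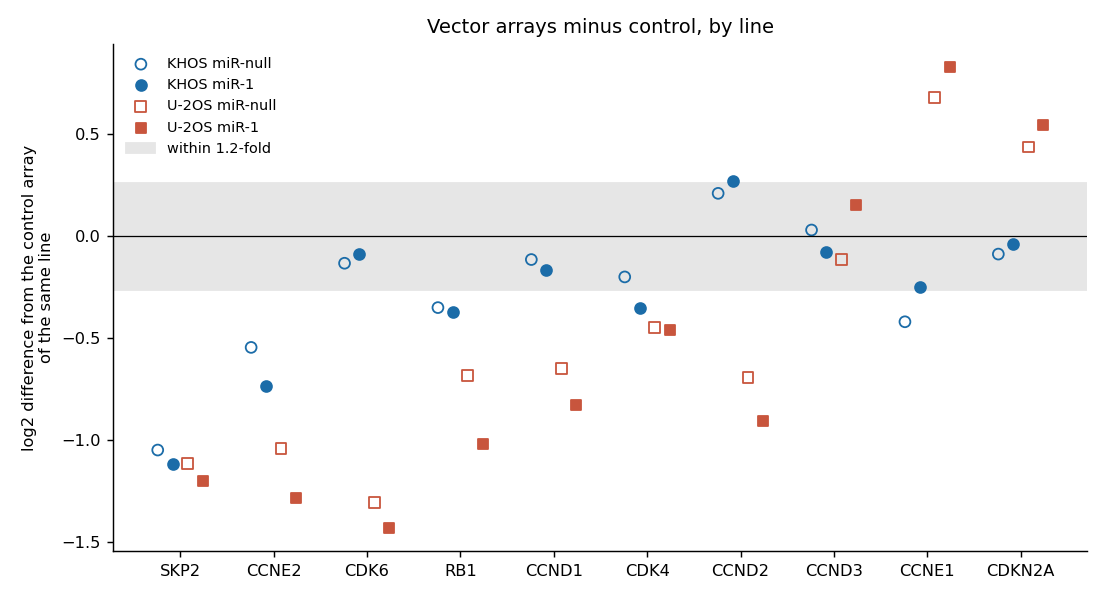
Log2 difference of each vector array from the control array of its line, by gene, with the lines and vectors in different symbols. The 4 SKP2 points lie between -1.05 and -1.20, whereas those of CDK6 and CCNE1 separate by line.

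The values moved further from control in U-2OS than in KHOS for several of these genes. The median over the 10 was -0.21 in KHOS, against -0.77 for U-2OS, where all genes had -0.01 and -0.10. After quantile normalization the mean vector differences in KHOS and U-2OS were -0.70 and -1.21 for CCNE2, -0.41 and -0.60 for RB1 and -0.14 and -0.51 for CCND1. CDK4 then had nearly equal values, -0.295 and -0.305, and SKP2 moved further in KHOS (-1.13 against -0.96). Part of this contrast between the lines thus depends on the normalization. In U-2OS 7 of 10 were lower by at least 1.2-fold on both vector arrays, against 28% of all genes, and CCNE1 and CDKN2A were higher, against 12.9%. In KHOS 3 were lower, against 10.6%, and 0 higher, against 15.8%. The U-2OS vector arrays are also those with the narrowest range of values and the highest spike-ins. The interaction of line with vector was tested in limma with the miR-null and miR-1 arrays of a line taken as replicates of vector, so the spread comes from those different plasmids alone and none is measured among controls, which number 1 a line. CDK6 was the 1 of 10 that passed, where 2.28% of all genes did (2% higher and 0.286% lower). At an unadjusted p under 0.05 there were 5 of 10, against 22.3%. The endothelial marker PECAM1 passed the same interaction test (-1.21), while CDH5 and KDR lay below the level filter. RUNX2 passed it too (3.13), with its U-2OS vector arrays below that filter.

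CDK6 differed from control by -0.13 and -0.09 in KHOS, against -1.31 and -1.43 in U-2OS, where the control signal was 2.58-fold that of the vector arrays. The difference between the lines in this change was 1.26 ± 0.23 (log2, SE; adjusted p = 0.0381 in limma). The 2 next brightest of its 5 probe sets above the level filter ran with it, with 10.03, 9.87 and 10.04 in KHOS, against 10.40, 9.45 and 9.32 in U-2OS for one. For the other they were 9.07, 9.01 and 9.11 in KHOS, against 9.46, 8.22 and 8.29 in U-2OS. The 2 dimmest gave 0.88 and -0.000735 for the same difference. After quantile normalization CDK6 had -0.14 in KHOS, against -1.13 for U-2OS, and the difference of 0.983 had an adjusted p of 0.119. The adjusted p was 0.0635 over all probe sets, 0.0883 for the mean of the gene's probe sets, 0.191 when the miR-null array of KHOS was dropped and 0.212 when its miR-1 array was.

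CCNE1 had opposite signs in the lines. It differed from control by -0.42 and -0.25 in KHOS, against 0.68 and 0.83 in U-2OS, so the U-2OS vector arrays held its highest values and the KHOS vector arrays its lowest. The line difference of -1.09 ± 0.25 (SE) had an adjusted p of 0.0609 in limma, and quantile normalization gave -0.39 in KHOS, against 0.93 for U-2OS. CCND2 had -0.69 and -0.90 in U-2OS, against 0.21 and 0.27 in KHOS below the level filter, a line difference of 1.04 ± 0.25 (SE; adjusted p = 0.0665). Its next brightest probe set did not follow, with 10.05, 10.19 and 10.28 in U-2OS. CDKN2A had 0.44 and 0.54 in U-2OS, against -0.09 and -0.04 in KHOS, a line difference of -0.55 (adjusted p = 0.209). CCND2 and CDKN2A take their KHOS signs from values below the level filter. Opposite signs, found for 3 of the 10 with these included, occurred in 27% of all genes. CCND3 stayed near its controls, with 0.03 and -0.08 in KHOS, against -0.12 and 0.15 in U-2OS.

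**Figure D4:**
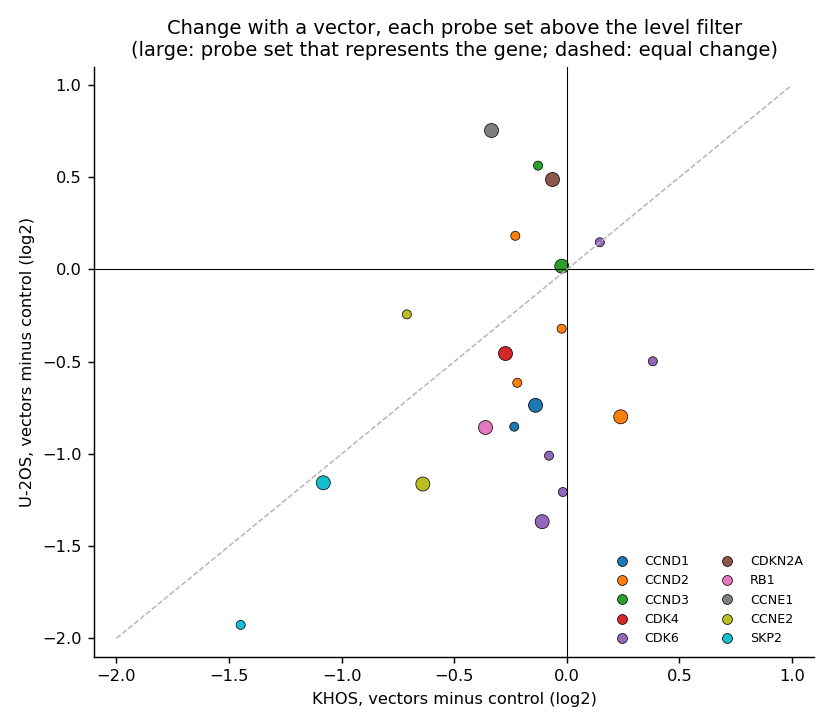
Log2 difference of the vector arrays' mean from control in KHOS (x axis) and U-2OS (y axis) for the G1 genes' probe sets above the level filter, coloured by gene. SKP2's representative probe set lies at -1.08 and -1.16, near equal change, while that of CDK6 lies at -0.11 and -1.37.

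Around these genes the E2F targets had values of 1 sign. Of 24 tested, from a list of 26, 0 passed in limma, but all 24 had a negative fitted value and a vector mean below control in both lines. The share of all genes with such signs was not worked out, so the sign counts in this paragraph have no like background. All genes also share the 1 control array of each line, so their signs are not separate observations. Their median was -0.65, and 19 of 24 were lower by at least 1.2-fold on all 4 vector arrays, against 6.2% of all genes. Negative fitted values were not confined to E2F targets: the 4 osteosarcoma line markers tested were also all negative, with a median of -0.69 and 0 passing (COL1A1 -1.18, RUNX2 -0.71, SPARC -0.66 and VIM -0.26). Of these markers 3 of 4 had a vector mean below control in both lines. RUNX2 did not, with 0.86 in KHOS, against -2.27 for U-2OS, where its vector arrays (4.72 and 4.23) lay below the level filter. Lower by at least 1.2-fold on all 4 vector arrays were 2 of the 4 markers. The most negative E2F targets were CCNA2, which encodes cyclin A2 (-1.01), and MCM6 (-0.97). Of the 12 RB family and E2F genes 0 passed and 7 were negative, with E2F8 at -1.17, RBL1 at -0.93, the atypical E2F7 at 0.81 and the repressor E2F6 at 0.26. The 3 CDK inhibitors tested were all positive in the fit, with 0 passing, CDKN1A at 0.66, CDKN1C at 0.44 and CDKN1B at 0.16. CDKN1B had opposite signs in the lines, 0.51 in KHOS, against -0.19 for U-2OS, while CDKN1A and CDKN1C were positive in both. CDKN1A had 9.23, 10.11 and 10.20 in KHOS, against 10.32, 10.66 and 10.76 in U-2OS, lowest on the control of each line. The 5 CDK activation genes had a median of 0.04 and 0 passed, with CDK7 at 0.39, CCNH at 0.21, CDK2 at -0.43 and CDC25A, a phosphatase that activates CDK2, at -0.05. The 10 ubiquitin ligase partners had a median of -0.02 and 0 passed, with AMBRA1, a receptor for cyclin D destruction, at 0.27, FZR1 at 0.10, the RING subunit RBX1 at -0.22 and CKS1B at -0.17.

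In the line difference of the vector change, E2F5 was the 1 gene tested in these lists that passed (1.20, adjusted p = 0.0425 in limma). It had 0.27 in KHOS, against -0.93 for U-2OS. Of all genes 2.28% passed that test, so 1 call over these lists says little about them. The E2F5 call was not followed through the alternatives. The largest values among the E2F targets were those of the licensing factors CDT1 (1.02) and MCM7 (0.82), which did not pass.

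**Figure D5:**
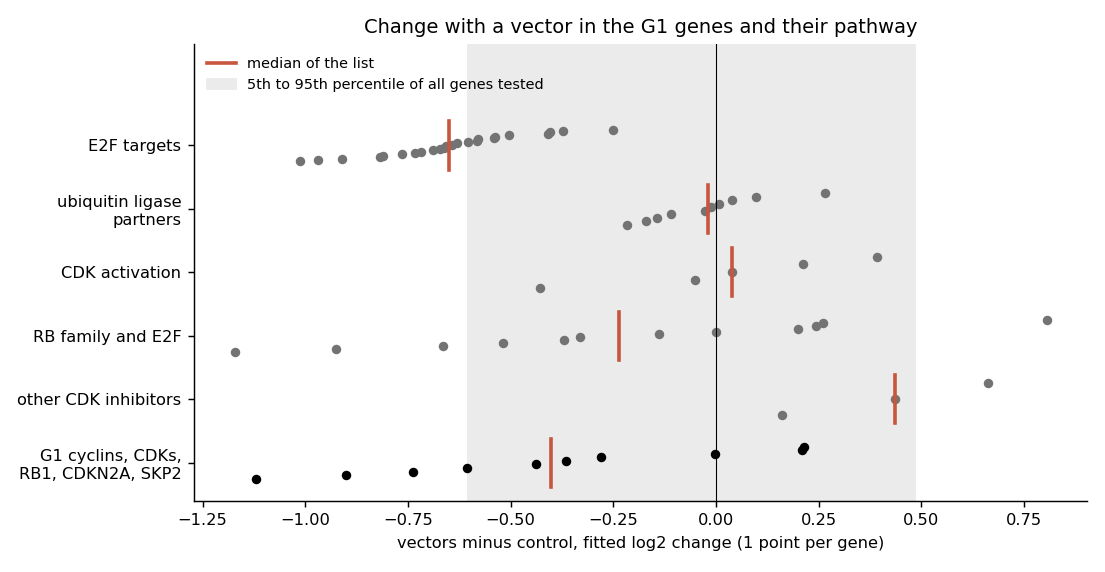
Fitted log2 difference, vectors minus control, for the genes of each list, with 1 point per gene and the list's median marked. All 24 E2F targets lie below 0, with a median of -0.65, while the ubiquitin ligase partners lie around -0.02.

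The miR-1 plasmid was set against its empty counterpart, which asks what the microRNA adds to the vector. The G1 genes differed little between these arrays. In limma 0 of the 10 passed, as did 0% of all genes, and at an unadjusted p under 0.05 there were 0 of 10, against 0.602%. Lower by at least 1.2-fold in both lines were 0 of 10, against 2.2%, and higher 0 of 10, against 0.903%. Beyond 1.2-fold in a single line lay RB1 (-0.34) and CCND3 (0.27), both in U-2OS.

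CCNE2 had the most negative fitted difference, -0.22 (95% interval -0.71 to 0.28), from -0.19 in KHOS, against -0.24 for U-2OS. RB1 followed with -0.18 (-0.69 to 0.32), and CCNE1 had the most positive value, 0.16 (-0.56 to 0.88). CCND2 differed by -0.21 in U-2OS, the line in which it was measured above the filter, and by 0.06 in the other, with an interval of -0.79 to 0.63 for the fit. SKP2 had -0.07 in KHOS, against -0.09 for U-2OS, and an interval of -0.48 to 0.32 that leaves out a value as low as its -1.12 between vectors and control. For 8 of the 10 genes, all but SKP2 and CCNE2, the interval includes the gene's own fitted value between vectors and control. The fit therefore does not exclude a miR-1 difference of that size for them, though for CCND3 that size is -0.002. Its spread also takes in how far the lines disagree over the vectors. CDK6 differed by 0.05 in KHOS, against -0.12 for U-2OS, yet its interval is -0.84 to 0.77. The width thus does not reflect the number of arrays alone. Of the E2F targets 0 of 24 passed, with CCNA2 (-0.27) and GINS1, a replication helicase subunit (-0.19), lowest, and MYBL2, a cell cycle transcription factor (0.19), and CDT1 (0.13) highest. In the other pathway lists 0 genes passed either.

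The empty vector alone was also set against control. For miR-null minus control the fitted value was -1.08 ± 0.17 for SKP2 (SE; adjusted p = 0.21 in limma), -0.79 ± 0.20 for CCNE2 (0.367) and -0.52 ± 0.21 for RB1 (0.501). Of the 10 genes 0 passed, as did 0% of all genes, and those 3 had an unadjusted p under 0.05, against 9.75%. This comparison shares its control and its miR-null arrays with that of both vectors, so part of their likeness is built in. It does not measure what share of the vector values miR-1 adds.

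Each gene's profile over the 6 arrays, centred on its mean, was set against those of all genes tested by the root mean square difference in log2. Nearest to SKP2 were ZDHHC12-DT (0.137), DYNC2I2 (0.163) and CCNA2 (0.164). CCNE2 lay nearest to FZD2 (0.158), HYCC1 (0.174) and HELLS (0.217), and CCNE1 to DAB2 (0.136), MLLT11 (0.14) and TMEFF2 (0.141). Nearest to CCND1 were KAT6B (0.0612), DMXL2 (0.0612) and ARF6 (0.0674), to CCND2 MAGEA1 (0.331), MAGEA12 (0.358) and MAGEB2 (0.46), of the MAGE cancer-testis family, and to CCND3 PRR12 (0.0382), RPP25L (0.0394) and DDHD2 (0.0449). RB1 lay nearest to ANP32E (0.0527), VKORC1L1 (0.0568) and PFAS (0.0613), CDK6 to NAPEPLD (0.0694), LRP6 (0.0859) and PIF1 (0.0994) and CDK4 to PLIN3 (0.0277), PDXDC1 (0.0429) and MAPKAP1 (0.0529). For CDKN2A they were DTX2P1-UPK3BP1-PMS2P11 (0.029), NFATC1 (0.0355) and SLC23A3 (0.0366). These describe 6 arrays that share lines and treatments.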

How the data were processed

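RNA of KHOS and U-2OS cells was hybridized to 6 Affymetrix U133 Plus 2.0 arrays. The authors deposited log2 values made with RMA in Qlucore 3.2, per the labels and the design text. Of 54675 probe sets 62 controls were left out; 41091 had 1 symbol, 1801 several and 11721 none, and only the first were named. The build behind the annotation is not stated in these sources. Each gene was represented by its probe set with the highest mean, and 12958 genes with a mean of at least 5.11 were tested in limma 3.58.1 (R 4.3.3), with treatment and line as terms, or line, vector and their interaction (2 residual degrees of freedom each). Fits were tested on simulated data. From each pathway list the text names passing genes, up to 4, or else the most positive and negative, up to 2 each way, and for each G1 gene the 3 nearest profiles; CDKN1A's array values are given in addition. The genes, lists and comparisons were chosen with earlier results of these data known. Alternatives were quantile normalization, centring on array medians, other filters and probe set rules, another prior variance, each array left out and the Mann-Whitney test of the design text with its 1.2-fold rule. Precision is limited by the number of arrays.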

Additional observations from a re-analysis of the deposited data

Results flagged for a closer look

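For CDK6 the change with a vector differed between the lines in the interaction test, by 1.26 (log2, KHOS minus U-2OS; adjusted p = 0.0381 in limma). For CCND2 (0.24 in KHOS, against -0.80 for U-2OS), CCNE1 (-0.33 against 0.75) and CDKN2A (-0.064 against 0.49) both vector arrays of KHOS lay on the other side of control from both of U-2OS. The KHOS values of CCND2 and CDKN2A were all below the level filter, so their KHOS signs are read from background-level signal. The interaction tests of these differences gave adjusted p of 0.0665, 0.0609 and 0.209 in limma, so they did not pass. Opposite signs of this kind occurred in 27% of all genes.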

How the results depend on the processing

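Counts of the 10 genes that passed held within 1.5 times of the values given under the alternatives, except as follows. Between vectors and control, where 0 passed, 1 did with the prior variance set by mean level and 1 with both vectors as 1 group, and leaving out each array gave 0 to 7, the 7 without the KHOS control array and 1, SKP2, without the U-2OS control array. For miR-null minus control, with 0, the prior variance gave 1 and leaving out arrays 0 to 5. Between the lines, with 7, the exact Mann-Whitney test gave 0, since its smallest p with 3 arrays against 3 is 0.1; between vectors and control that limit is 0.133 and for miR-1 0.333. For the line difference in the vector change, with 1, quantile normalization, the mean of a gene's probe sets and all probe sets gave 0, the 75th percentile filter and the prior variance gave 3, CCNE1 and CCND2 joining CDK6, and leaving out arrays gave 0 to 3; without a control array it could not be fitted. The sign turned for CCND3 between vectors and control with quantile normalization (0.09194) and the mean of probe sets (0.11), for miR-1 with the mean of probe sets for CCND3 (-0.03046) and CDK6 (0.02317), between lines for CCND3 with both (-0.11 and -0.17), and in the line difference for SKP2 with quantile normalization (-0.17) and CCND3 with median centring (0.03136). Leaving out each array gave, between vectors and control, -0.80 to 0.24 for CCND2, -0.07685 to 0.07241 for CCND3, -0.33 to 0.75 for CCNE1 and -0.06394 to 0.49 for CDKN2A. For miR-1 it gave -0.31 to 0.08435 for CCND1, -0.44 to 0.28 for CCND2, -0.06921 to 0.23 for CCND3, -0.12 to 0.44 for CCNE1, -0.18 to 0.01271 for CDK4, -0.42 to 0.34 for CDK6, -0.08414 to 0.24 for CDKN2A and -0.42 to 0.06007 for RB1. For the line difference of CCND3 it gave -0.17 to 0.09274. Over all genes, 3 passed between vectors and control, but 11 with quantile normalization, 0 with median centring, 19 without a level filter, 16 with the 75th percentile filter, 12 with the mean of probe sets, 10 over all probe sets, 74 with the prior variance, 62 with both vectors as 1 group and 10 to 2278 without 1 array. For the line difference 296 became 15 with quantile normalization, 553 with the 75th percentile filter, 863 with the prior variance and 6 to 1531 without 1 array. For miR-null, 0 became 1 over all probe sets, 25 with the prior variance, 13 from the 4 arrays compared and up to 1346 without 1 array. Between the lines 7103 became 4713 with the 75th percentile filter, 17200 over all probe sets and 4471 without either miR-null array, and those higher in KHOS were 3928 of 7103, 3101 of 7295 with quantile normalization and 4354 of 6659 with median centring. The causes were not tested. Vector and control arrays are paired by cell line, which is a term in each fit, and the labels give no replicate numbers for any other pairing.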
